A study of Mus musculus with 7 samples.

Results

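The 10 genes followed here mark tendon cells and were measured by RNA sequencing of mouse shoulder joints. They are Scx, Mkx, Tnmd, Chodl, Thbs4, Comp, Kera, Fmod, Cilp2 and Tppp3. The members were chosen by symbol, as known tendon transcription factors and matrix genes, and are 10 of the 56854 gene identifiers that all files hold. The 7 mice had all undergone rotator cuff repair of the left supraspinatus tendon and were sampled 2 weeks later, 1 library per mouse. Of these, 3 were wild type and 4 were Tnc-/-, the label for inactivated Tnc. Tnc is the gene of Tenascin C, a glycoprotein of the extracellular matrix. No unoperated joint was analysed here, and strain, age, sex and the way in which Tnc was inactivated are not given in the sources used here. The RNA came from the whole joint, so the tendon is one of several tissues in each library, and fewer cells of a type cannot be told apart from less RNA per cell.

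Tendon cells (tenocytes) build and maintain a matrix made mainly of aligned type I collagen fibrils. The transcription factors Scx (scleraxis) and Mkx (mohawk) direct the formation and maturation of tendon, and Tnmd (tenomodulin), a membrane glycoprotein of mature tenocytes, lies downstream of Scx. The other members include proteins that organise collagen, such as the thrombospondins Comp and Thbs4 and the proteoglycans Kera and Fmod, and Tppp3, a tubulin-binding protein known as a marker of the tendon sheath. Scleraxis is a basic helix-loop-helix factor, a class that binds the E-box, written CANNTG.

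The stretch before the start of 3 members is shown for this motif, because Scx itself gave no counts (below). The sequences are the 250 bases upstream of the gene start, from RefSeq on GRCm38.p6, 5′ to 3′ on the strand of the gene, with each CANNTG in capitals; the pattern reads the same on both strands. They are a description of the reference and are not in the build of the counts.
Tnmd: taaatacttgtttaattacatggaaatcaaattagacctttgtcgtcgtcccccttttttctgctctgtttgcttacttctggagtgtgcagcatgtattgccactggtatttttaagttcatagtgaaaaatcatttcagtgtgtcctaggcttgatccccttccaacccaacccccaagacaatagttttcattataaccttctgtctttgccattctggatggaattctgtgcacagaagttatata
Thbs4: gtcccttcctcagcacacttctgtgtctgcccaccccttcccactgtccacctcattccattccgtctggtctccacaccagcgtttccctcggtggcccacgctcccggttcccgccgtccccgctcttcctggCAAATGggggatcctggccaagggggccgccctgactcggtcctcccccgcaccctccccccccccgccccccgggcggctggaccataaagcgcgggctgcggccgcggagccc
Fmod: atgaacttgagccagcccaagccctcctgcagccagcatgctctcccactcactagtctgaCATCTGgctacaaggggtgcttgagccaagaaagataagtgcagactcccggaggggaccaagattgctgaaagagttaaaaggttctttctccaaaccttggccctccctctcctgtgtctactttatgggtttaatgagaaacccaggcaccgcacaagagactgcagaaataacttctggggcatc
The Tnmd stretch is chrX:133850758-133851007 (plus strand), that of Thbs4 is chr13:92794819-92795068 (minus strand) and that of Fmod is chr1:134037004-134037253 (plus strand). Thbs4 had 1 match, CAAATG, and Fmod had 1, CATCTG, whereas Tnmd had 0 in this window. The table held 6 of the 10 members, of which 4 had a match: Chodl had 4, Cilp2 had 1 and Kera had 0. For Chodl and Kera the table's window does not end at the RefSeq gene start, so their counts are for another window. The 3 shown are examples, chosen after the matches were seen. Of the 32851 promoters in the table, 66.2% held at least 1 match, so a match by itself does not set a gene apart.

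Before the members are described, the libraries need a word. They held 13464057 to 18503833 gene counts in wild type and 19250322 to 28191101 in Tnc-/-. The count files are not alike between genotypes, with 56980 identifiers in wild type and 56941 in Tnc-/-, and 5 rows that name no gene in the Tnc-/- files alone. Any difference in how the counts were made therefore cannot be told apart from genotype. Tnc stood at 437, 292 and 327 CPM in wild type and at 33.4, 38.9, 39.9 and 55.0 CPM in Tnc-/-, so every library labelled Tnc-/- was below every wild-type library. The Tnc-/- mean was 11.9% of the wild-type mean, so some Tnc RNA was counted, and these data hold no protein values. Levels are given as CPM, the usual unit per M counts (M, mega), with each library total scaled by TMM. Wild-type libraries 2 and 3 stood apart: the summed level of 1791 olfactory, vomeronasal and trace amine receptor genes, which a joint should not use, was 1301.5 and 920.3 CPM in them, against 85.6 CPM in wild-type library 1 and 36.0 to 43.5 CPM in Tnc-/-. Member values without these libraries are given after the results of all 7.

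Scx had 0 counts in all 7 libraries. A count of 0 allows up to 3 counts, or 0.111 to 0.199 CPM depending on the library, but this limit holds only if reads from the gene could be assigned to it. In the GENCODE M21 annotation, Scx (2.01 kb) lies wholly inside Bop1 (24.3 kb), a ribosome biogenesis gene on the opposite strand. Among protein-coding genes that lie inside another gene, 1067 of 1221 (87.4%) were at 0 in all 7 libraries. Of those inside a gene on the opposite strand only, 690 of 773 (89.3%) were at 0. The share was 17.6% of genes with no overlap (2060 of 11691) and 5.47% of genes with a partial overlap (486 of 8888). The 0 of Scx is thus shared by most genes in the same position, and the files give no measurement of Scx in either genotype.

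**Figure D1:**
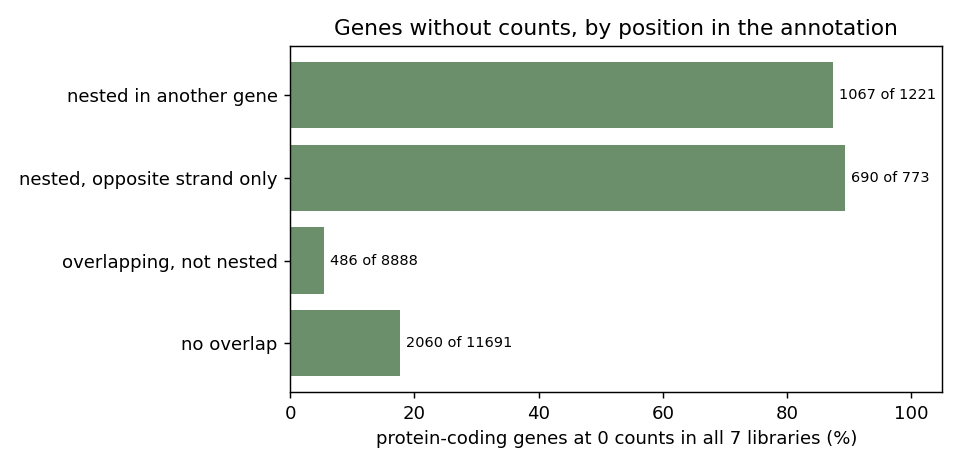
Percent of protein-coding genes with 0 counts in all 7 libraries (horizontal axis), by position relative to other genes in the annotation; the numbers beside the bars are genes at 0 of genes in the class. Genes inside another gene were at 0 in 87.4% of cases, against 17.6% of genes with no overlap.

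The same was seen for other genes of tendon and joint tissue. Among the other genes of the lists described here, Aspn and Ogn (both inside Cenpp), Thbs3 (inside Mtx1), Lipe and Alas2 were at 0 in every library, and all lie inside another gene on the opposite strand. Aspn and Ogn encode small leucine-rich proteoglycans of tendon matrix, and Alas2 is the heme synthesis enzyme of red cell precursors. Bop1, the gene around Scx, had 918, 413 and 555 counts in wild type and 1568, 891, 972 and 1202 in Tnc-/-. Its levels were 49.3, 27.4 and 33.7 CPM in wild type and 58.0, 49.6, 54.4 and 62.9 CPM in Tnc-/-, so that every Tnc-/- library was above every wild-type library. The log2 fold change was 0.61 (SE 0.20) and did not pass the test (edgeR adjusted p = 0.0515). These are counts of Bop1 and say nothing of Scx.

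The other 9 members all had counts in every library and all were tested. Of these, 1 passed the test for a difference between genotypes (edgeR quasi-likelihood test, adjusted over 17791 genes): Mkx, which was lower in Tnc-/-. Over all genes tested, 29.0% were called, 10.3% as higher and 18.7% as lower in Tnc-/-. Only Mkx had genotypes that did not overlap, 1 of 9 members, against 35.1% of all genes tested. The median log2 fold change of the 9 members was 0.0071, beside -9.0e-04 for all genes.

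Levels of the members per kb of exon, which can be compared between genes, were in one order in all 7 libraries. In wild type the mean was 466 ± 70.7 CPM per kb for Thbs4, 393 ± 38.1 for Fmod and 310 ± 34.0 for Comp (SD, n = 3). In Tnc-/- it was 523 ± 121 for Thbs4, 414 ± 98.0 for Fmod and 325 ± 114 for Comp (SD, n = 4). These 3 matrix genes were the most abundant of the members. Tnmd followed at 183 and 184 CPM per kb, Tppp3 at 102 and 120, Kera at 77.3 and 76.3 and Cilp2 at 60.6 and 58.1, in wild type and Tnc-/- respectively. Chodl, at 6.43 and 6.26, and Mkx, at 2.91 and 1.54 CPM per kb, were the lowest. Background was not removed from these levels. Over the span of Mkx it equalled 55.5% and 37.5% of the level in wild-type libraries 2 and 3 (below). Neighbours Thbs4 and Fmod, and Kera and Cilp2, had ranges of mean ± SD that overlapped in both genotypes. The ranges of Cilp2, Chodl and Mkx were apart from one another in both.

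Mkx, the homeobox factor that maintains tendon collagen expression, was the only transcription factor of the members with counts. It had 184, 191 and 216 counts in wild type and 181, 92, 125 and 121 in Tnc-/-. Its level was 9.88, 12.7 and 13.1 CPM in wild type and 6.69, 5.13, 7.00 and 6.33 CPM in Tnc-/-. Every Tnc-/- library lay below every wild-type library, and the lowest wild-type value was that of library 1. The means were 11.9 ± 1.76 CPM (SD, n = 3) and 6.29 ± 0.821 CPM (SD, n = 4). The log2 fold change was -0.92 (SE 0.28, 95% interval -1.55 to -0.29, edgeR adjusted p = 0.0379).

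The call of Mkx was not stable. It was made in 6 of 18 alternatives, with log2 fold changes from -1.17 to -0.56 and adjusted p from 0.00266 to 1, all of them below 0. It was lost when any 1 library other than wild-type library 1 was left out (adjusted p = 0.0763 and 0.117 without wild-type libraries 2 and 3 in turn, and 0.0816 to 0.0992 without a Tnc-/- library). With 1 library left out, the log2 fold change of Mkx ran from -0.98 to -0.84. Without both wild-type libraries 2 and 3 the value was -0.65 (adjusted p = 0.176). Mkx also overlaps another annotated gene on its strand over 2.10 kb, and how reads there were counted is not known.

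Mkx spans 70.3 kb, the longest span of the members, and is low in level, so the background described for wild-type libraries 2 and 3 was set beside it. The level per kb of span of receptor genes with no overlap was 0.100 and 0.0700 CPM in wild-type libraries 2 and 3 and 0.00447 CPM in library 1. In Tnc-/- it was 0.00178, 0.00159, 0.00149 and 0.00125 CPM. Over the span of Mkx this comes to 0.314, 7.04 and 4.92 CPM in wild type and 0.0876 to 0.125 CPM in Tnc-/-. It equals 55.5% and 37.5% of the Mkx level in wild-type libraries 2 and 3 and 3.18% in library 1. With this amount subtracted, Mkx stood at 9.56, 5.65 and 8.20 CPM in wild type and 6.57, 5.01, 6.89 and 6.24 CPM in Tnc-/-, and the genotypes overlapped. The log2 ratio of the means then was -0.34, in place of -0.92. The subtraction was chosen after the data were seen and assumes that background falls evenly along a gene, which was not tested.

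**Figure D2:**
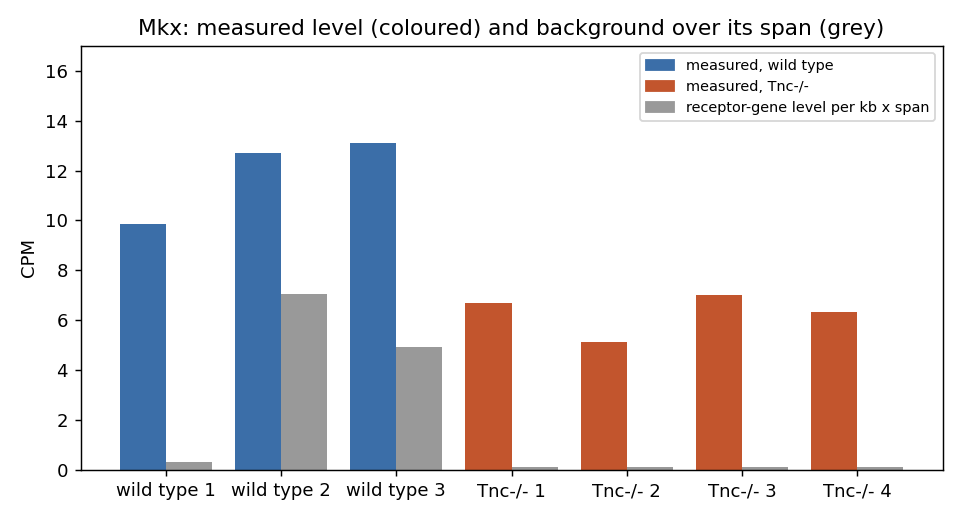
Mkx level in each library (coloured bars, CPM) beside the receptor-gene level per kb multiplied by the span of Mkx (grey bars, CPM). The grey bars reach 7.04 and 4.92 CPM in wild-type libraries 2 and 3 and are at most 0.314 CPM in the others.

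Tnmd and Chodl are membrane proteins of tenocytes, Tnmd being the usual marker of differentiated tendon and Chodl (chondrolectin) a lectin-like protein. Tnmd stood at 295, 202 and 244 CPM in wild type and at 235, 215, 182 and 361 CPM in Tnc-/-. The highest and the lowest value were both in Tnc-/-, libraries 4 and 3, and the genotypes overlapped. The log2 fold change was 0.0071 (SE 0.25, 95% interval -0.55 to 0.57, edgeR adjusted p = 0.987). Chodl stood at 44.5, 26.3 and 35.1 CPM in wild type and at 35.5, 33.9, 31.8 and 36.3 CPM in Tnc-/-. Its Tnc-/- values lay inside the wild-type range, and the fitted difference was -0.039 on the log2 scale (SE 0.18, edgeR adjusted p = 0.893). The background over its span was 7.92% and 4.15% of its level in wild-type libraries 2 and 3. For the members other than Mkx and Chodl that share was at most 0.723% in any library.

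Thbs4 and Comp are pentameric thrombospondins that bind collagen; Comp is also abundant in cartilage. Thbs4 stood at 1766, 1301 and 1532 CPM in wild type and at 1607, 1354, 1631 and 2289 CPM in Tnc-/-. The value of Tnc-/- library 4 was above all the others, and the other 3 Tnc-/- libraries lay within the wild-type range. The log2 fold change was 0.17 (SE 0.22, 95% interval -0.34 to 0.68, edgeR adjusted p = 0.607). Comp stood at 1028, 828 and 902 CPM in wild type and at 785, 645, 1012 and 1421.5 CPM in Tnc-/-. The Tnc-/- values reached both below and above the wild-type range, and their CV of 35.1% was the widest among the members in either genotype. The log2 fold change was 0.071 (SE 0.27, 95% interval -0.54 to 0.68, edgeR adjusted p = 0.867).

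The ratio of Comp to Thbs4 within a library does not depend on scaling. The log2 ratio of their counts was -0.78, -0.65 and -0.76 in wild type and -1.03, -1.07, -0.69 and -0.69 in Tnc-/-. The mean was lower in Tnc-/- by a difference of -0.14, which did not pass an exact two-sided permutation test (p = 0.371, adjusted p = 0.743 over 2 ratios; the smallest p that the 35 splits of these values can give is 0.0286). With 1 library left out, the difference ran from -0.20 (without Tnc-/- library 4 or 3) to -0.072 (without Tnc-/- library 2), and was -0.084 without Tnc-/- library 1. The Tnc-/- libraries fell into a lower pair, 1 and 2, and a higher pair, 3 and 4. Summed cartilage markers were 1708, 828 and 1047 CPM in wild type and 1084, 986, 1923 and 2769 CPM in Tnc-/-. They were higher in libraries 3 and 4 of Tnc-/-, where the ratio was higher, but in wild type library 1 had the most cartilage marker RNA and the lowest ratio. All 11 cartilage markers had counts, and their part in the Comp values was not tested.

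Kera (keratocan) and Fmod (fibromodulin) are small leucine-rich proteoglycans, a family that controls the width of collagen fibrils. Kera stood at 222, 132 and 174 CPM in wild type and at 196, 150.1, 172 and 177 CPM in Tnc-/-. Its Tnc-/- values fell inside the wild-type range, and the fitted difference of -0.018 on the log2 scale (SE 0.19) had an edgeR adjusted p of 0.954. Fmod stood at 1332, 1160 and 1406 CPM in wild type and at 1222, 1041, 1409 and 1798 CPM in Tnc-/-. Its genotypes overlapped, with Tnc-/- library 4 highest and library 2 lowest, and the log2 fold change was 0.074 (SE 0.22, edgeR adjusted p = 0.823). The log2 ratio of Fmod to Kera was 2.58, 3.13 and 3.01 in wild type and 2.64, 2.79, 3.03 and 3.34 in Tnc-/-. The difference of 0.041 did not pass the exact two-sided permutation test (p = 0.857, adjusted p = 0.857). Its sign was not stable: it was -0.12 without wild-type library 1 and -0.089 without Tnc-/- library 4, and reached 0.15 without wild-type library 2 or Tnc-/- library 1.

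Cilp2, a secreted matrix protein of the cartilage intermediate layer protein family, stood at 278, 215 and 291 CPM in wild type and at 229, 196, 243 and 334 CPM in Tnc-/-. The genotypes overlapped, and the fitted difference was -0.060 on the log2 scale (SE 0.21, edgeR adjusted p = 0.851). Tppp3 stood at 212, 195 and 159 CPM in wild type and at 207, 187, 223 and 273 CPM in Tnc-/-. Its 2 highest values were in Tnc-/- and its lowest in wild type, and the log2 fold change was 0.24 (SE 0.17, edgeR adjusted p = 0.331). Without wild-type library 1 it was 0.42 and passed the test (adjusted p = 0.0450), the lowest among its alternatives, which reached 1. Under that setting 14113 of 21989 genes (64.2%) were called.

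**Figure D3:**
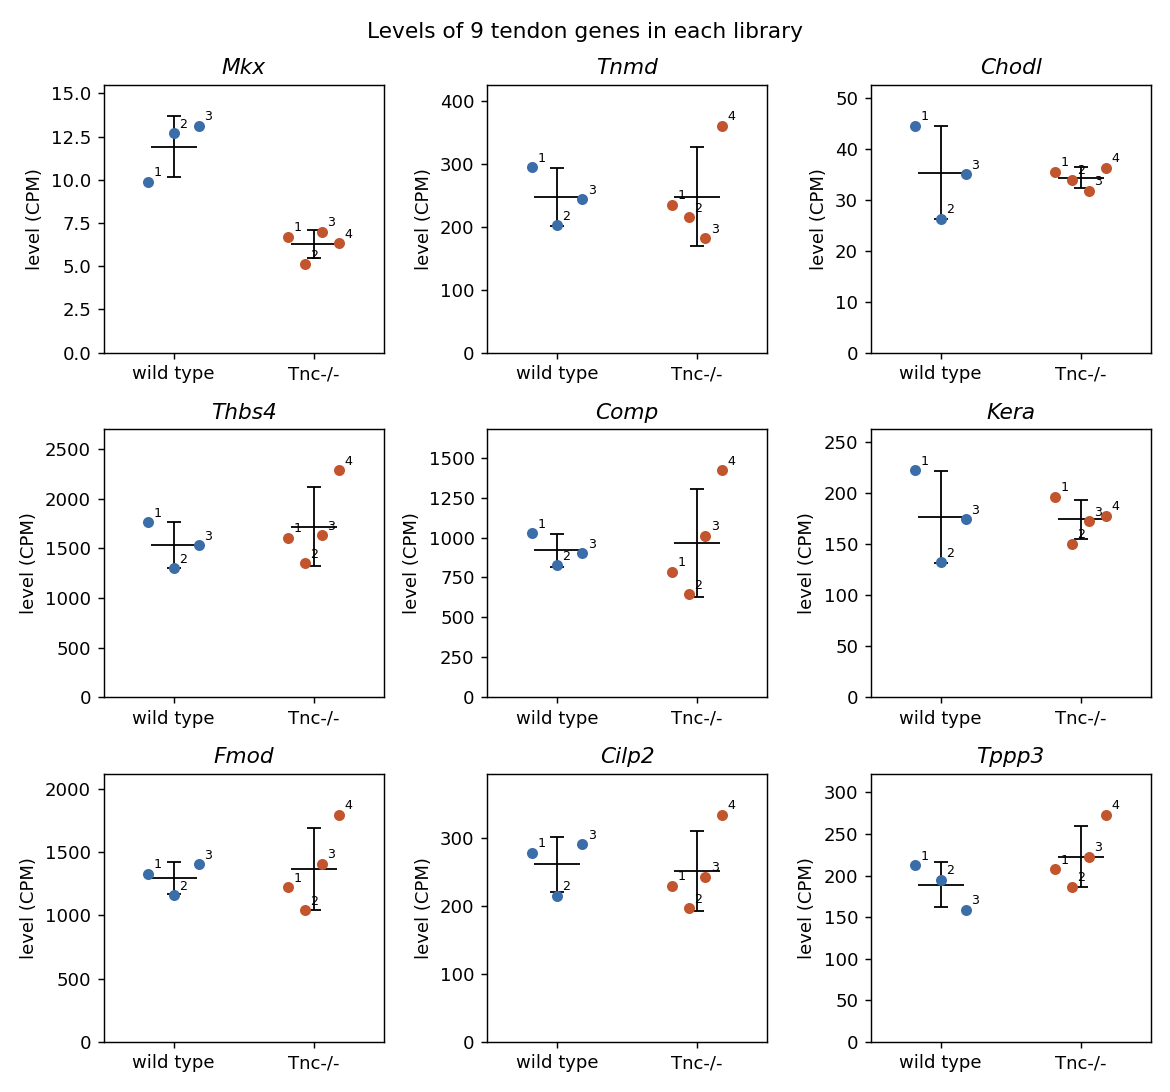
Level of each of the 9 members with counts (vertical axes, CPM, from 0) in the wild-type (n = 3) and Tnc-/- (n = 4) libraries; points are libraries with their replicate number, and bars are the mean ± SD. Mkx was the 1 member whose genotypes did not overlap, and Tnc-/- library 4 was highest for Tnmd, Thbs4, Comp, Fmod, Cilp2 and Tppp3.

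For the 8 members other than Mkx, the log2 fold changes lay between -0.060 and 0.24, with SE of 0.17 to 0.27 and adjusted p of 0.331 to 0.987. Their 95% intervals reached from -0.55 to 0.68 over the 8 genes, or 0.683 to 1.61 times the wild-type level, and each of them included 0. The signs of these small values depended on the scaling. With TMM 5 of the 9 members had a value above 0 and 4 below, whereas with library totals all 9 were below 0, as was the median over all genes tested, at -0.24.

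Without wild-type libraries 2 and 3, wild type was left with 1 library, which is assumed to vary like those of Tnc-/-, and 0 of the 9 members were called (edgeR; 2 had an unadjusted p under 0.05). Over all 18530 genes tested in that fit, 4.45% were called and 24.6% had an unadjusted p under 0.05. The members that moved furthest from their values over all 7 libraries were Chodl and Kera, both highest in wild-type library 1. Chodl was -0.38 (95% interval -0.73 to -0.025, edgeR adjusted p = 0.176) and Kera -0.36 (95% interval -0.75 to 0.035, edgeR adjusted p = 0.244). The other values were -0.25 for Tnmd, -0.043 for Thbs4, -0.095 for Comp, 0.033 for Fmod, -0.15 for Cilp2 and 0.061 for Tppp3. With the receptor-gene level as a covariate over all 7 libraries, Chodl was -0.56 (95% interval -1.06 to -0.069, edgeR adjusted p = 0.205) and Kera -0.54 (95% interval -1.05 to -0.029, edgeR adjusted p = 0.241). Both intervals lie below 0, but neither value passed the test over all genes, of which 18.65% had an unadjusted p under 0.05 in that fit. The receptor-gene level was 36.0 to 43.5 CPM in Tnc-/- and at least 85.6 CPM in every wild-type library, so it follows genotype. The adjusted values therefore rest largely on wild-type library 1, the nearest to Tnc-/-. They are not independent of the fit without wild-type libraries 2 and 3.

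**Figure D4:**
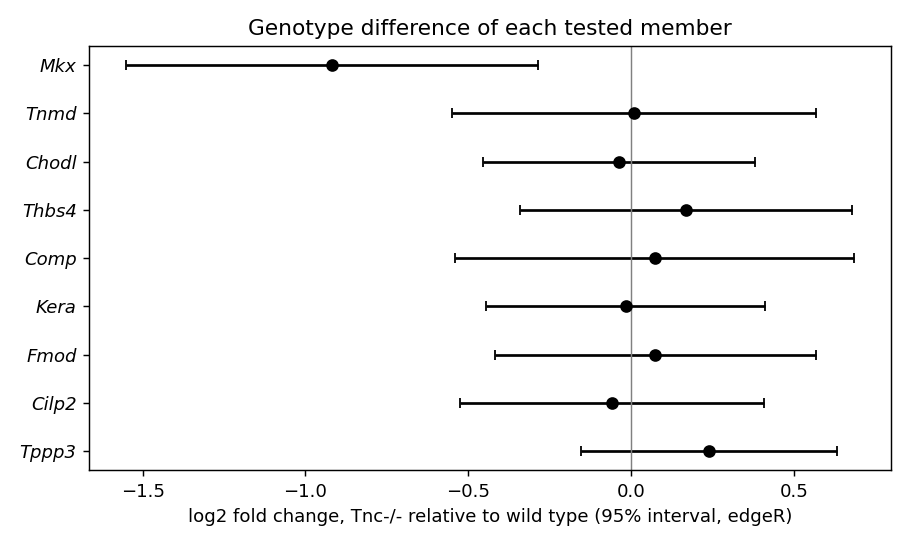
Log2 fold change of each tested member, Tnc-/- relative to wild type (horizontal axis), with its 95% interval from edgeR. The interval of Mkx runs from -1.55 to -0.29, and those of the other 8 members include 0.

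The summed level of the members differed more within a genotype than between the genotype means. This summed level was 5187, 4073 and 4756 CPM in wild type and 4525, 3826, 4911 and 6697 CPM in Tnc-/-, of which Thbs4, Comp and Fmod made up 79.4 to 82.5%. As a share of gene counts the sum was 0.522, 0.455 and 0.539% in wild type and 0.434, 0.352, 0.456 and 0.612% in Tnc-/-. Tnc-/- library 4 was the highest and Tnc-/- library 2 the lowest library of the 7. Within Tnc-/-, 7 of 9 members were highest in library 4 and 7 were lowest in library 2; within wild type, 6 were highest in library 1 and 7 were lowest in library 2.

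The excess of Tnc-/- library 4 was unequal among members. Relative to the mean of the other 3 Tnc-/- libraries, it was 1.75 times for Comp, 1.71 for Tnmd, 1.50 for Cilp2 and Thbs4, 1.47 for Fmod and 1.33 for Tppp3. For Chodl, Kera and Mkx it was 1.08, 1.03 and 1.01 times. The same library was highest in the summed other tendon matrix genes (95713 CPM, against 56196 to 63330 CPM in the other Tnc-/- libraries) and in the cartilage markers. It was also the highest of the 7 libraries in the summed tendon regulators (768 CPM) and in fibroblast and sheath (2360 CPM) and macrophage (1069 CPM) markers. Col22a1, the only gene of the myotendinous junction list, was highest there too (179.5 CPM). In erythroid (12378 CPM) and adipocyte (403 CPM) markers, library 4 was the lowest of Tnc-/-. It lay between other Tnc-/- libraries in neutrophil (6624.5 CPM), nerve and Schwann cell (156 CPM) and epidermis (13.0 CPM) markers. Bone markers (2148 CPM) were the highest of Tnc-/- but below wild-type library 1 (2410 CPM). The excess of library 4 was thus found in some lists beyond tendon and cartilage, but not in all. Skeletal muscle markers did not show it, at 42743 CPM in library 4 and 39944 to 60606 CPM over Tnc-/-. Whether the tissue taken differed was not tested.

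**Figure D5:**
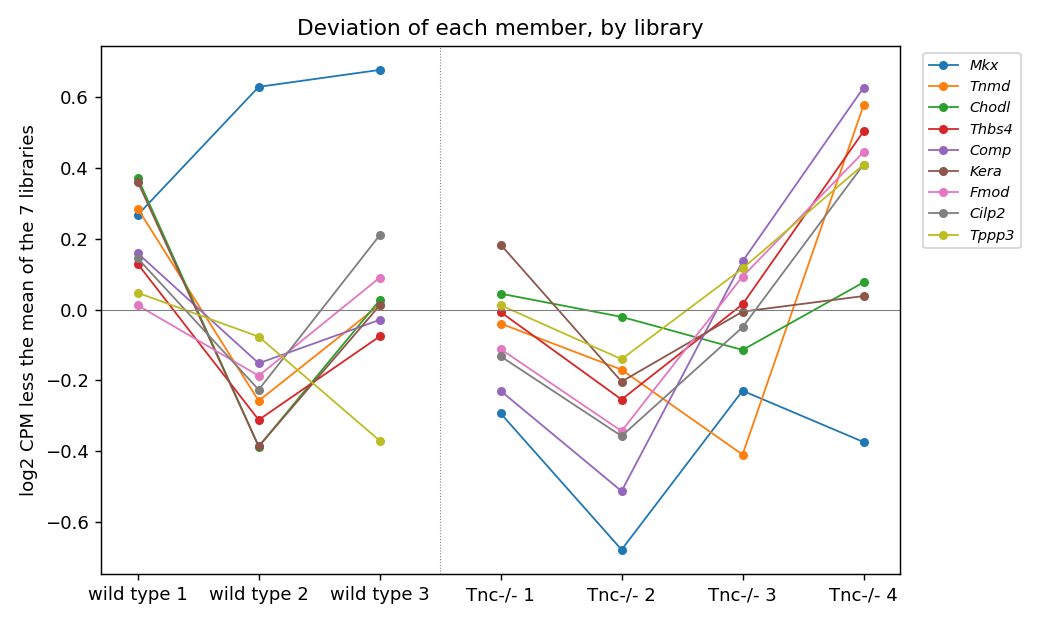
Deviation of each member from its mean over the 7 libraries (vertical axis, log2 CPM) by library, with lines joining values of one gene and a dotted line between genotypes. Tnc-/- library 4 holds the highest value of 6 members, whereas Mkx is above 0 in wild type and below 0 in Tnc-/-.

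The genes whose pattern was most like the mean of the 9 members over the 7 libraries, among 12372 genes compared, were Ptgis (Pearson r = 0.940), Pkd2 (0.939), Vim (0.939), Pamr1 (0.938) and Lbp (0.934). These values describe 7 libraries that differ in depth and in the summed levels of tissue markers. Each library gives both values of a pair, and the values carry no test. Of the members themselves, Cilp2 (0.959), Comp (0.913), Thbs4 (0.901) and Fmod (0.893) were closest to the mean of which they are part. Tnmd had 0.837, Kera 0.641, Chodl 0.599 and Tppp3 0.548. Mkx, at 0.148, was the member least like the mean.

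Other genes that act with the members were read from lists. Over all genes tested, edgeR called 29.0%, DESeq2 35.1% and limma voom 5.47%, and 42.3% had an unadjusted p under 0.05 in edgeR; the counts below are to be read against these shares. Of 18 regulators of tendon, such as Egr1, the homeobox factor partners of the Eya proteins and TGF-beta ligands, edgeR called 0 higher and 2 lower, and the median log2 fold change was 0.12; 4 had an unadjusted p under 0.05, DESeq2 called 4 and limma voom 0. Bmp4, a bone morphogenetic protein, stood at 13.6, 23.0 and 29.6 CPM in wild type and at 13.3, 12.2, 12.0 and 8.26 CPM in Tnc-/-. It was highest in wild-type libraries 2 and 3, while library 1 lay close to Tnc-/-, and the log2 fold change was -0.95 (SE 0.29, edgeR adjusted p = 0.0401). Eya1, a transcriptional cofactor, stood at 11.1, 30.3 and 23.3 CPM in wild type and at 9.47, 13.8, 9.91 and 8.42 CPM in Tnc-/-, a difference of -1.05 on the log2 scale (SE 0.34, edgeR adjusted p = 0.0476). The background over the span of Eya1 was 14.2 and 9.90 CPM in wild-type libraries 2 and 3, while that over the shorter span of Bmp4 was 0.717 and 0.501 CPM. Without these 2 libraries the values of Bmp4 and Eya1 were -0.25 and -0.097, and neither passed the test (adjusted p = 0.604 and 0.868; range over their alternatives 8.1e-04 to 1 and 3.5e-04 to 1).

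Of 23 other tendon matrix genes, 21 were tested, with 0 called higher and 1 lower by edgeR and a median of 0.074; 3 had an unadjusted p under 0.05, DESeq2 called 4 and limma voom 0. The gene was Lum (lumican), a proteoglycan of the same family as Kera and Fmod, at 1634, 1085 and 1537 CPM in wild type and 803, 848, 897 and 1117 CPM in Tnc-/-. Only Tnc-/- library 4 reached into the wild-type range, and the log2 fold change was -0.63 (SE 0.21, edgeR adjusted p = 0.0482). Without wild-type libraries 2 and 3 it was -0.84 (adjusted p = 0.0613, within 0.00105 to 1 over its alternatives). Lum was called in 8 of 20 alternatives and was below 0 in all of them. Of 5 relatives of the thrombospondins, Tnmd and Cilp2, 4 were tested, with a median of -0.078; edgeR, DESeq2 and limma voom each called 0, and 0 had an unadjusted p under 0.05 in edgeR.

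Of 11 lists of markers of other tissues, the summed levels of 4 did not overlap between the genotypes and those of 7 did, where 35.1% of all single genes tested did not overlap. Summed skeletal muscle markers were 28547 to 38223 CPM in wild type and 39944 to 60606 CPM in Tnc-/-, with 2 of 12 called higher. Neutrophil markers were 2434 to 5025 and 5524 to 9333 CPM (4 of 7 called higher), and erythroid markers 4375 to 8462 and 12378 to 24586 CPM (4 of 5 called higher), where 10.3% of all genes were called higher. Nerve and Schwann cell markers were 112 to 138 and 147 to 165 CPM (1 of 7 called higher and 1 lower). The sums that overlapped were those of cartilage, bone, macrophage, adipocyte, epidermis, myotendinous junction (1 gene, Col22a1) and fibroblast and sheath markers. The last stood at 1909 to 1966 and 1690 to 2360 CPM. Epidermis markers were 11.7, 59.9 and 43.8 CPM in wild type and 8.79 to 14.3 CPM in Tnc-/-. Of 3 tested, 2 were called lower, where 18.7% of all genes were called lower. Only wild-type libraries 2 and 3, those with the high receptor-gene background, were above the Tnc-/- range, and library 1 lay within it. Adipocyte markers were 283 to 531 and 403 to 659 CPM, with 2 of 7 called higher. Of the other lists that overlapped, cartilage and fibroblast and sheath had 1 gene each called higher, bone had 1 higher and 1 lower, and macrophage and myotendinous junction had 0 called by edgeR and 0 with an unadjusted p under 0.05. The part of these tissues in the level of the tendon genes was not tested.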

How the data were processed

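Poly(A) RNA libraries of 7 shoulder joints were analysed, 1 per mouse by the series' text, grouped by the genotype in the labels. The deposited values are raw counts of reads per gene that the authors made; the submitters' processing notes name HISAT2 2.2.1, HTSeq 2.0.2, DESeq2 1.38.3 and the build GRCm39, with no settings. Rows that name no gene, present in the Tnc-/- files, held 30.1 to 32.7% of reads and were left out. The number of value columns left unmapped was 0.

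Genes in all files were tested in R 4.3.3 with edgeR 4.0.16 (filterByExpr, TMM scaling, robust quasi-likelihood F test, genotype as the 1 term), with Benjamini-Hochberg adjustment over 17791 genes and a threshold of 0.05. The SE was obtained from the log2 fold change and F. Gene spans, exons and overlaps came from GENCODE M21 (GRCm38), so no coordinates of the counts are given; it held 91.5% of the identifiers. Floors and intervals cover counting error only. Ratios were compared by exact permutation tests, and values in groups of 4 by Dixon's test. Whether equal replicate numbers pair the libraries was checked by correlating their deviations from the group means.

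The members and lists were chosen with earlier results of these data known. Besides the members, up to 3 called genes per pathway list with the smallest adjusted p and the 5 genes most like the members (Pearson r of log2(CPM + 1), mean of at least 5 CPM) are named; Bop1 and the genes at 0 were chosen after their values were seen. Alternatives were other scalings, DESeq2 1.42.0 under both Benjamini-Hochberg and Bonferroni adjustment, limma 3.58.1 voom, other filters, genes spanning at most 10 kb, the receptor-gene level as a covariate, the replicate block and leaving out libraries. Background subtraction and genes without an overlapping gene were added after seeing the data.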

Additional observations from a re-analysis of the deposited data

Results flagged for a closer look

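Pamr1, 1 of the 5 genes most like the members, stood at 309 CPM in Tnc-/- library 4, against 161, 154 and 166 CPM in the other Tnc-/- libraries. The gap of 0.922 of the range was above Dixon's 95% critical value for 4 samples. It was 1 of 38 values tested, and chance gives about 1 in 20. Pamr1 was picked for following the mean of the members, which is itself highest in this library, so the gap is a description and no independent sign.

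Reads in rows that name no gene, which no comparison used, made up 32.5, 31.1, 32.7 and 30.1% of the reads listed for Tnc-/- libraries 1 to 4. Reads counted as ambiguous between genes made up 11.4 to 11.6%.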

How the results depend on the processing

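Genes called over the whole table numbered 5159 of 17791 (29.0%), but 1653 with DESeq2 and Bonferroni adjustment, 973 with limma voom, 629 of 4662 genes spanning at most 10 kb (13.5%), 442 with the background covariate, 825 without wild-type libraries 2 and 3, 2203 of 8665 genes without an overlapping gene (25.4%), and 2229 to 14113 when 1 library was left out. Members called numbered 1, but 0 under each of these 6 fits and without a filter, and 0 to 2 when 1 library was left out; the fits of short genes and of genes without an overlap held 4 and 8 members and not Mkx, so its call could not be made there (at most 2 members had an unadjusted p under 0.05 in any of these fits). Tnc was called in 18 of 18 alternatives. Mkx kept its direction in all 18 and was called in 6. It missed the threshold with DESeq2 and Bonferroni adjustment (-0.96, adjusted p = 1), limma voom (-0.89, adjusted p = 0.0598), no filter (-0.83, adjusted p = 0.0736) and the background covariate (-0.56, adjusted p = 0.472). It moved to -0.34 after background subtraction, and the cause was not tested.

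In the main edgeR fit (all 7 libraries, TMM, genotype as the 1 term) the 8 other members lay between -0.060 and 0.24. Their sign often turned in the alternatives. Tnmd was -0.034 with DESeq2 size factors or DESeq2, -0.23 with library totals, -0.060 with upper-quartile scaling, -0.022 with voom, -0.070 with at least 10 counts in every library, -0.44 with the background covariate, -0.25 without wild-type libraries 2 and 3, and -0.062 among genes without an overlapping gene. With library totals Thbs4 was -0.071, Comp -0.17, Fmod -0.17 and Tppp3 -0.0020. With the covariate Thbs4 was -0.20, Comp -0.25, Fmod -0.055, Tppp3 -0.013, Chodl -0.56, Kera -0.54, Cilp2 -0.28, Bmp4 0.016 and Eya1 0.32. Without wild-type libraries 2 and 3 Thbs4 was -0.043 and Comp -0.095. Without a filter Chodl was 0.034, Kera 0.055 and Cilp2 0.019, and with voom Kera was 0.0082. With at least 10 counts Comp was -0.0079 and Fmod -0.0067; among genes spanning at most 10 kb Comp was -0.24 and Tppp3 -0.064; among genes without an overlapping gene Comp was -0.0018 and Fmod -0.0011. When 1 library was left out, values ran from -0.23 to 0.25 for Tnmd, -0.21 to 0.26 for Chodl, -0.0045 to 0.37 for Thbs4, -0.18 to 0.25 for Comp, -0.18 to 0.28 for Kera, -0.089 to 0.18 for Fmod and -0.23 to 0.079 for Cilp2. With library totals the summed levels of markers moved to 0.072 (myotendinous junction), -0.33 (bone), -0.24 (fibroblast and sheath) and 0.097 (nerve and Schwann cell) on the log2 scale.

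Correlations of same-numbered libraries were -0.029, 0.073 and -0.014, within the range of libraries with unequal numbers (-0.078 to 0.084). The wild-type deviations also hold the receptor-gene background, which differed between those libraries. The check therefore cannot tell whether equal numbers pair the libraries. With the replicate block 1932 genes and 0 members were called; Mkx was -0.92 (adjusted p = 0.191), Tnmd -0.22, Comp -0.20 and Fmod -0.092.

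The making of the count files cannot be told apart from genotype, 3 against 4 mice limit the precision, and Scx has no count in any library.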
